A study of Homo sapiens with 8 samples.

Results

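The SR proteins and the heterogeneous nuclear ribonucleoproteins (hnRNPs) were followed in U2OS cells, an established human osteosarcoma line, by RNA-seq. Members were taken by symbol: SRSF genes, TRA2A and TRA2B, PTBP genes and HNRNP genes, whatever their level. Of 19414 genes in the files, 42 were members, made up of 12 SRSF, 2 TRA2, 3 PTBP and 25 HNRNP genes. The 8 libraries fell into 4 genotypes of 2 libraries each. They were cells that carried Zab and overexpressed MYC (Zab+MYC), cells that overexpressed MYC alone (MYC), cells that carried Zab alone (Zab), and cells with neither (WT). Zab is in general use a name for Zαβ, the paired domains with which ADAR1, an enzyme that edits RNA, binds Z-DNA and Z-RNA. The labels describe neither the Zab construct, nor the vector and promoter that drive it or MYC, nor whether a genotype is a clone or a pool.

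SR proteins bind RNA through RNA recognition motifs and carry a domain rich in arginine and serine, which is phosphorylated by SRPK and CLK kinases. They mostly promote the use of nearby splice sites from exonic enhancers. The hnRNPs and the polypyrimidine tract binding proteins (PTBP) coat nascent transcripts and often repress splice sites, and many also act in mRNA export, stability or translation. Many genes of both groups keep their own level in check with poison exons, whose inclusion sends the transcript to nonsense-mediated decay. Several SR protein and hnRNP genes, SRSF1 and PTBP1 among them, are known MYC-responsive genes in other cells.

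Each library gave between 686991.5 and 1326166.5 tags in exons, where a tag is the read unit recovered from the deposited values, so that a level of 30 CPM (counts scaled to library size, with TMM factors) rests on few tags. Exons took 69.1% to 69.2% of all tags in Zab+MYC libraries, 75.9% to 76.1% in MYC, 60.6% to 60.9% in Zab and 70.6% to 71.1% in WT. TMM differences are relative to the bulk of genes. The deposited values carry a factor per library whose origin is not stated in these sources, which list the fly build dm6 beside hg19. Whether that factor rests on added fly RNA is not known from them, and no difference below is one of RNA per cell. The exon share moved with the genotype, and its part in every difference given here was not tested. The 2 libraries of a genotype differed by no more than counting noise (chi-square per degree of freedom 0.989, 0.985, 1.001 and 1.013 for Zab+MYC, MYC, Zab and WT). Nothing in the labels says that they came from separate cultures, so the p-values rest on a spread between libraries that may be technical and not biological. MYC averaged 706 ± 1.28 CPM in Zab+MYC, 1263 ± 37.1 in MYC, 212 ± 25.1 in Zab and 83.7 ± 15.8 in WT (SD, n = 2 each). ADAR, the gene of ADAR1, averaged 1043 ± 34.7, 239 ± 11.8, 6100 ± 138 and 267 ± 3.75 CPM in the same order. Whether its tags came from the gene itself or from the Zab construct was not tested. Cells with both constructs held less MYC RNA than cells with MYC alone, and less ADAR RNA than cells with Zab alone. Cell type markers are given in CPM scaled to exon tags without TMM factors. Of these markers, VIM lay between 4595 and 7658 CPM, while TWIST1 was at 0 tags in every genotype. COL1A2 and SP7 were at 0 in MYC, Zab and WT, and BGLAP in MYC and Zab. The sum of the 10 osteoblast and mesenchymal markers, most of it VIM, moved with the genotype. It was 7881 to 8008 CPM in Zab+MYC, 5368 to 5485 CPM in MYC, 8994 to 9404 CPM in Zab and 10964 to 11248 CPM in WT. COL1A1, a bone collagen, had 217 and 229 CPM in Zab+MYC, 104.5 and 116 CPM in MYC, 839 and 787 CPM in Zab, with 1146 and 1231 CPM in WT, and SPARC, a matrix protein of bone, had 666 and 619, 362 and 366, 1255 and 1371, and 1936 and 1920 CPM in the same order. The part of these shifts in the members' differences was not tested. The epithelial, leukocyte and endothelial markers each stayed at or below 17.2 CPM per library, summed within each list.

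After a filter on low values, 35 of the 42 members were tested along with 9638 other genes. The 7 members that did not pass were SRSF12, PTBP2, HNRNPA1L2, HNRNPCL1, HNRNPCL2, HNRNPCL3 and HNRNPCL4. PTBP2, the neuronal paralog of PTBP1, lay between 5.51 and 9.92 CPM in the 8 libraries. SRSF12 gave 1 tag in Zab+MYC, 0.5 tags in WT and none in MYC or Zab, where a count of 0 allows up to 3 tags per genotype. HNRNPCL1, HNRNPCL3 and HNRNPCL4 are near-identical copies of HNRNPC listed from the same start on chromosome 1, and the single tag each showed in Zab may be the same one. HNRNPA1 has many near-identical copies in the genome, HNRNPA1L2 among them, and its value is uncertain for that reason.

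Per kilobase of the transcript listed, HNRNPAB, an hnRNP of the A/B type also known as CBF-A, was the most abundant member at 331 CPM per kb on average over the 8 libraries. HNRNPM followed at 140 CPM per kb, SRSF2 at 134.5, HNRNPD at 127.5, HNRNPA2B1 at 115, HNRNPC at 114 and HNRNPK at 103.5. HNRNPAB led in every library, from 201 CPM per kb in the lower WT library to 512 in the higher MYC library. The places after it changed with genotype: SRSF2 averaged 162.5 ± 4.53 CPM per kb in Zab+MYC, 181 ± 6.04 in MYC, 105 ± 4.35 in Zab and 89.6 ± 0.854 in WT, whereas HNRNPM averaged 143 ± 0.974, 151 ± 3.91, 112.5 ± 6.88 and 155 ± 1.89 in the same order of genotypes (SD, n = 2 each). Thus SRSF2 lay above HNRNPM in both libraries of Zab+MYC and of MYC and below it in both of Zab and of WT. The gap in Zab was small, at 108 against 117 CPM per kb in replicate 1 and 102 against 108 in replicate 2. Among the tested SR genes SRSF6 and TRA2A were the least abundant, at 7.26 and 4.72 CPM per kb.

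**Figure D1:**
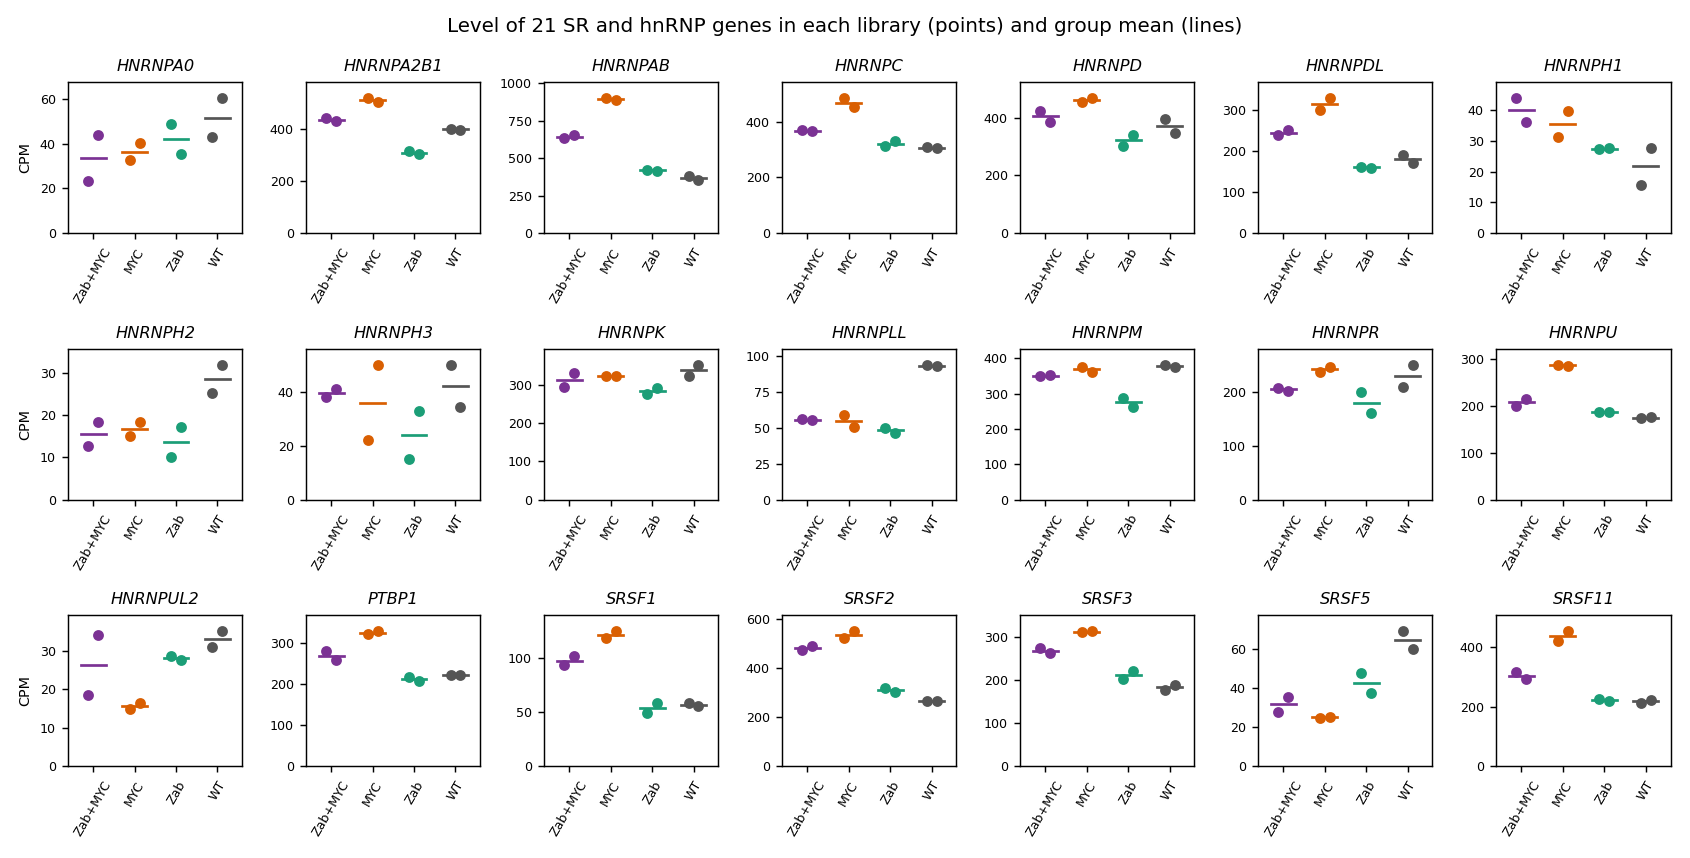
Level of 21 SR protein and hnRNP genes in TMM-scaled CPM (vertical axes start at 0) in each library (points) and as the genotype mean (lines), for Zab+MYC, MYC, Zab and WT from left to right. HNRNPAB, SRSF1, SRSF2 and SRSF11 were high in both genotypes with overexpressed MYC, and HNRNPLL was high in WT alone.

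The summed level of all 42 members was 6144 and 6257 CPM in Zab+MYC libraries and 7273 and 7351 CPM in MYC libraries. It was 4956 and 4923 CPM in Zab libraries and 5516 and 5390 CPM in WT libraries. Both libraries of each genotype lay together, and the order was MYC, Zab+MYC, WT and Zab. The 14 SRSF and TRA2 genes summed to 1762 and 1785 CPM in Zab+MYC, 2089 and 2157 CPM in MYC, 1390 and 1394 CPM in Zab, with 1397 and 1381 CPM in WT. Here Zab and WT overlapped. The 25 HNRNP genes summed to 4050 and 4166 CPM in Zab+MYC, 4802 and 4818 CPM in MYC, 3306 and 3276 CPM in Zab, with 3856 and 3743 CPM in WT, and here both Zab libraries lay below both WT libraries. In bulk RNA, fewer cells that express a gene and less of its RNA per cell cannot be told apart.

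**Figure D2:**
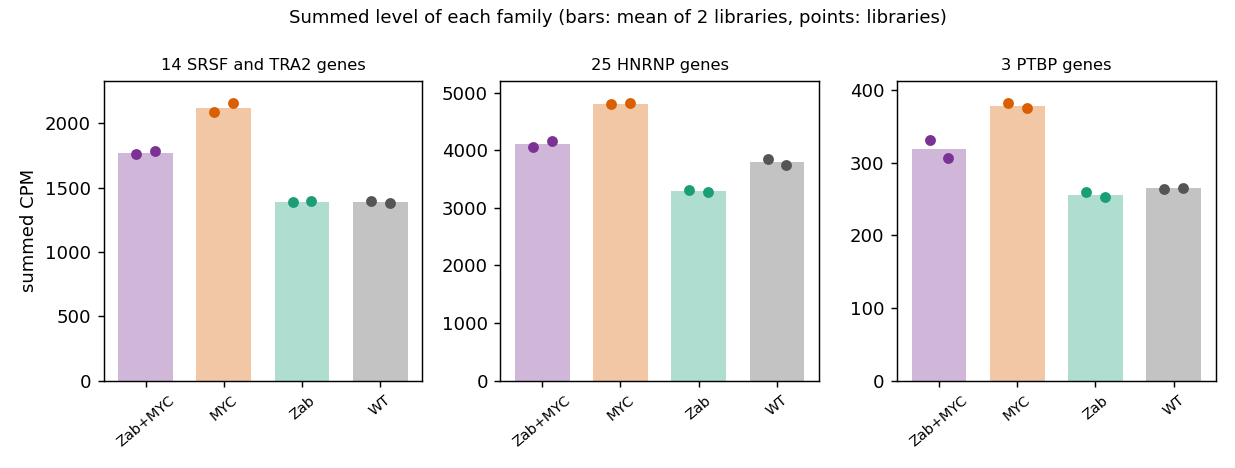
Summed level in CPM of the SRSF and TRA2, HNRNP and PTBP genes by genotype, with bars for the mean of 2 libraries and points for libraries (axes start at 0). MYC is highest in each panel; the Zab bar lies below the WT bar for the HNRNP genes and level with it for the SRSF and TRA2 genes.

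The effect of overexpressed MYC alone was read from MYC against WT. Of the 35 members tested, 15 were higher and 5 lower in MYC at an adjusted p under 0.05 (limma over all genes, Benjamini-Hochberg, two-sided). That is 42.9% higher and 14.3% lower, against 27.8% and 30.4% of all 9673 genes tested. The median difference was 0.24 over the members and -0.04 over all genes, in log2(CPM + 2), the scale of every log2 difference here. The exon share of tags was 75.9% to 76.1% in MYC and 70.6% to 71.1% in WT. Of 11 SRSF genes 6 were higher and 2 lower, and of 20 HNRNP genes 7 were higher and 3 lower, and the difference between the families was not tested. PTBP1 and TRA2B made up the rest. Both MYC libraries lay above both WT libraries in 19 of the 35 members and below both in 10, against 37.6% and 41.3% of all genes.

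SRSF1, the founding SR protein and a known proto-oncogene, had 118 and 124.5 CPM in MYC libraries, against 58.0 and 55.1 CPM in WT (log2 difference 1.07 ± 0.17 SE, adjusted p = 8.7e-08). SRSF2, also called SC35, which binds exonic enhancers, had 523.5 and 549 CPM in MYC and 267 and 263 CPM in WT, 2.02-fold higher (1.01 ± 0.081, adjusted p = 2.7e-18). Both MYC libraries stood far above both WT libraries for each gene. SRSF11, an SR protein that associates with U2AF, had 422 and 453 CPM in MYC and 213 and 224 CPM in WT (0.998 ± 0.093, adjusted p = 2.3e-15). SRSF3, the smallest SR protein and an mRNA export adapter, had 313 and 313 CPM in MYC and 177 and 189 CPM in WT (0.77 ± 0.10, adjusted p = 4.8e-10). Smaller rises were called for SRSF9 (0.57 ± 0.15, adjusted p = 0.00095), TRA2B (0.41 ± 0.18, adjusted p = 0.048) and SRSF7, an export adapter like SRSF3 (0.36 ± 0.13, adjusted p = 0.017). SRSF6, SRSF8 and SRSF10 did not pass, with differences of 0.24, 0.04 and 0.31.

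Among the repressor families, HNRNPAB showed the greatest rise of the 42 members. It had 899 and 887.5 CPM in MYC libraries and 381 and 352 CPM in WT, 2.43-fold higher (1.28 ± 0.069, adjusted p = 5.4e-27). HNRNPDL, a paralog of HNRNPD, had 299 and 328 CPM in MYC and 189 and 172 CPM in WT (0.79 ± 0.10, adjusted p = 8.7e-10). HNRNPU, the scaffold attachment factor SAF-A, had 287 and 285.5 CPM in MYC and 175 and 175 CPM in WT (0.70 ± 0.11, adjusted p = 2.5e-08). HNRNPC, which binds uridine tracts, had 483 and 454 CPM in MYC and 308.5 and 304 CPM in WT (0.61 ± 0.083, adjusted p = 1.8e-09). In all 4 genes both MYC libraries lay above both WT libraries. PTBP1, the polypyrimidine tract repressor, had 323 and 329 CPM in MYC and 222 and 224 CPM in WT (0.55 ± 0.097, adjusted p = 1.4e-06). HNRNPA2B1 rose by 0.36 ± 0.078 (adjusted p = 6e-05). HNRNPD, which binds AU-rich elements and is also called AUF1, had 454 and 466 CPM in MYC and 396 and 345 CPM in WT (0.31 ± 0.084, adjusted p = 0.00094). HNRNPH1, which binds runs of G, had 31.3 and 39.7 CPM in MYC and 15.8 and 27.6 CPM in WT (0.70 ± 0.27, adjusted p = 0.022), at levels where single libraries spread widely.

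The 5 members that fell in MYC were led by SRSF5, an SR protein also called SRp40. It had 24.75 and 24.98 CPM in MYC libraries and 68.8 and 59.9 CPM in WT, 2.46-fold lower (-1.30 ± 0.24, adjusted p = 2.5e-06). HNRNPUL2, a relative of HNRNPU, had 14.9 and 16.3 CPM in MYC and 30.9 and 34.96 CPM in WT (-0.99 ± 0.29, adjusted p = 0.0028). HNRNPLL, best known for repressing CD45 exons in lymphocytes, had 59.3 and 50.8 CPM in MYC and 94.0 and 93.2 CPM in WT (-0.75 ± 0.19, adjusted p = 0.00044). In these 3 genes both MYC libraries lay below both WT libraries. HNRNPUL1 fell by 0.57 ± 0.11 on the log2 scale (adjusted p = 7.9e-06) and SRSF4 by 0.43 ± 0.145 (adjusted p = 0.0089). SR genes thus moved both ways, SRSF1, SRSF2, SRSF3, SRSF7, SRSF9 and SRSF11 up and SRSF4 and SRSF5 down. HNRNPM, HNRNPK, HNRNPR and HNRNPA3, at over 100 CPM in every library, gave differences of -0.03, -0.06, 0.08 and 0.11 that were not called.

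Some of these calls depended on 1 library or setting. The call ended for HNRNPD and SRSF9 without WT replicate 2, and for HNRNPUL2 with DESeq2 (adjusted p up to 0.054, 0.097 and 0.058 over the alternatives). It ended for HNRNPH1 without MYC replicate 2 or WT replicate 1, for SRSF4 without either MYC library or WT replicate 2, for SRSF7 without MYC replicate 1 or WT replicate 1, and for TRA2B without either MYC library or WT replicate 2 (adjusted p up to 0.35, 0.16, 0.13 and 0.45). The calls of HNRNPH1, SRSF4, SRSF7 and TRA2B also ended with DESeq2. Library totals ended those of HNRNPH1, SRSF7 and TRA2B, and the deposited scale that of TRA2B. That of SRSF7 ended too when only genes listed with 1 transcript in all 8 libraries were fitted. The other 13 calls held in every alternative run. Here and below, that last fit was not run for members listed with more than 1 transcript. Scaling by library totals, which shifted the median of all genes by -0.12, gave 12 members higher and 8 lower, with 23.9% and 35.1% of all genes. Fitted alone, the genes listed with 1 transcript in all 8 libraries gave 6 higher and 2 lower of 15 members, with 30.5% and 31% of these genes. HNRNPA2B1, HNRNPH1 and SRSF11 were listed with different transcripts in MYC and in WT, and the part of this in their differences was not tested.

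The promoters of the members were searched for CACGTG, the E-box that MYC binds with MAX, in RefSeq windows of 300 bases (GRCh38.p14, 250 before to 50 after the gene start). The motif reads the same on both strands, and the choice to search was made after the values were known. Of 38 matched members 7 held it (18.4%), against 7.43% of all promoters. Of the 32 matched members that were tested 7 held it (21.9%), against 10.8% of the tested genes' promoters. It was in 2 of 14 matched members that rose in MYC (14.3%), in 1 of 5 that fell (20%) and in 4 of 13 not called (30.8%). The 2 risen members were HNRNPD and HNRNPDL, and the 1 that fell was HNRNPUL1. The 4 not called were HNRNPA3, HNRNPH2, HNRNPH3 and HNRNPM. Sites of 2 members called higher and 2 not called are shown as examples, with the motif in capitals on the gene's strand. They lie at chr4:82374001-82374030, chr4:82430364-82430393, chr19:8444921-8444950 and chr10:68331631-68331660.
HNRNPD: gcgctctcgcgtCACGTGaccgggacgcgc
HNRNPDL: agaggcccggggCACGTGcagaaaggagcc
HNRNPM: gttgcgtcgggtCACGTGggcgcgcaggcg
HNRNPH3: tgccggtcgaacCACGTGgggccctttccg

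For the members with the greatest rise and fall in MYC, HNRNPAB and SRSF5, the 250 bases before the start are given in full. Neither holds CANNTG, the general E-box, which 62.2% of all promoters hold in the same 250 bases, and neither therefore holds CACGTG. HNRNPAB holds CCAAT, the NF-Y motif, at 2 places (capitals), and 33% of all promoters hold CCAAT on either strand. SRSF5 holds none, and no letter is in capitals there. The regions are chr5:178204283-178204532 and chr14:69766892-69767141 on GRCh38.p14, both on the plus strand, and these letters say nothing of which factor binds there.
HNRNPAB: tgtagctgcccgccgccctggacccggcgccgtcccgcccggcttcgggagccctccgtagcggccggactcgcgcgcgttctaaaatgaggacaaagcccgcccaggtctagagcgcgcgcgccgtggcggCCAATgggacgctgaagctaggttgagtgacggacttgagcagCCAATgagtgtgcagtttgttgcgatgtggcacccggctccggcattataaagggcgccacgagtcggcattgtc
SRSF5: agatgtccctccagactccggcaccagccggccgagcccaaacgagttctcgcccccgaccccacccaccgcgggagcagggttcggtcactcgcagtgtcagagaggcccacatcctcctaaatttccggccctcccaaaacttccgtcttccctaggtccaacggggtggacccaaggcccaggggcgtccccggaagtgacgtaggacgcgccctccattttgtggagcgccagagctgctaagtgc

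Other genes of the same pathways moved in MYC as well. Of 20 tested SR-related proteins with RS repeats 14 were higher and 0 lower by limma (median difference 0.66). PNN, a splicing factor of nuclear speckles, had the largest difference at 1.69 ± 0.17 (adjusted p = 3.1e-14), followed by U2AF1, the subunit of U2AF that reads the 3′ splice site AG, at 1.58 ± 0.098 (adjusted p = 8e-24). Of 10 kinases and import factors 4 were higher and 1 lower. SRPK1, which phosphorylates SR proteins in the cytoplasm, averaged 113 ± 1.84 CPM in MYC and 44.4 ± 1.40 CPM in WT (SD, n = 2 each), and CLK1, a nuclear SR kinase, 20.98 ± 0.611 and 7.28 ± 1.30 CPM. Of 15 nonsense-mediated decay factors 8 were higher and 0 lower by limma, MAGOH and EIF4A3 of the exon junction complex among them (1.51 ± 0.30 and 1.34 ± 0.25). Of 12 hnRNP-like proteins named otherwise 3 were higher and 3 lower, with SYNCRIP, also called hnRNP Q, at 1.59 ± 0.095 and the poly(C)-binding PCBP4 at -1.36 ± 0.25. Of 24 other splicing regulators 9 were higher and 7 lower, from RBM25 at 1.56 ± 0.10 to NOVA2, a neuronal splicing regulator, at -1.53 ± 0.18. Over all genes, as above, 27.8% were higher and 30.4% lower.

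**Figure D3:**
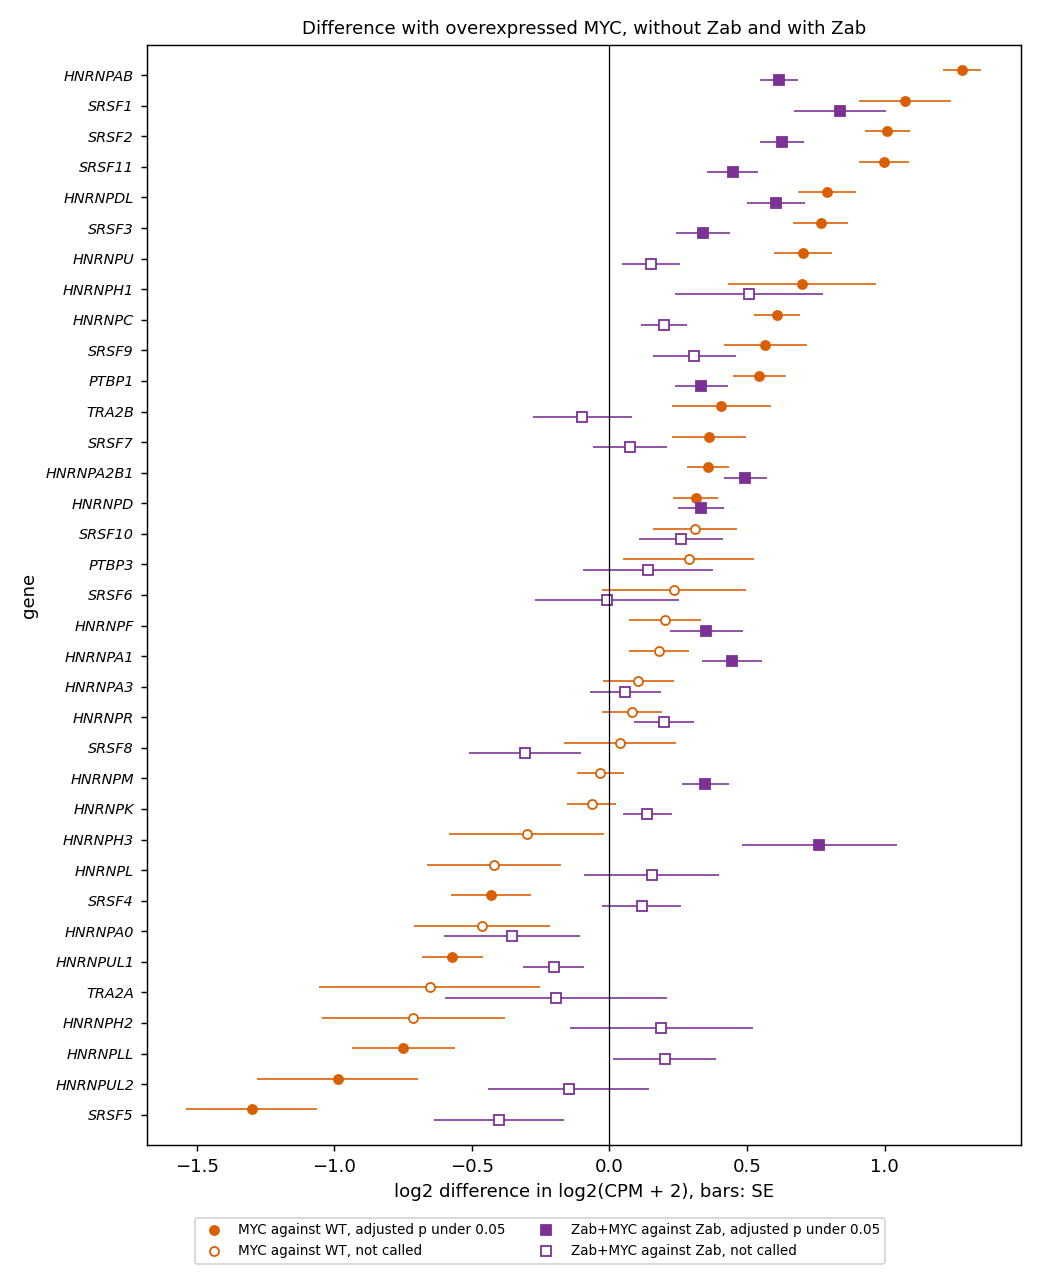
Difference with overexpressed MYC for the 35 members tested, in log2(CPM + 2) with SE bars, for MYC against WT (circles) and Zab+MYC against Zab (squares), with filled symbols at an adjusted p under 0.05. HNRNPAB leads the circles at 1.28 and SRSF5 closes them at -1.30, and most squares lie nearer to 0.

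The effect of MYC in cells that carry Zab was read from Zab+MYC against Zab, which shares no library with MYC against WT. Of the 35 members 13 were higher, 37.1%, against 14.3% of all genes, and 0 were lower, against 12.5% of all genes. No member was lower at an unadjusted p under 0.05 either by limma, and edgeR and DESeq2 also called 0 lower. The median difference was 0.20 over the members and -0.01 over all genes. The exon share was 69.1% to 69.2% in Zab+MYC and 60.6% to 60.9% in Zab. ADAR RNA lay 5.84-fold lower in Zab+MYC cells against Zab cells (-2.55 ± 0.059, adjusted p = 7.6e-49), and its part in the differences was not tested. Both Zab+MYC libraries lay above both Zab libraries in 21 members and below both in 3, against 30% and 30.9% of all genes. Of the 15 members higher in MYC against WT, 9 were also called here, which is 60% of those 15 and 69.2% of these 13. Over all genes the 1122 shared calls were 41.7% and 81% of the calls of the same comparisons.

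SRSF1 had 93.4 and 101 CPM in Zab+MYC libraries and 48.8 and 58.8 CPM in Zab (0.84 ± 0.17, adjusted p = 6.5e-05). SRSF2 had 471.5 and 490.5 CPM in Zab+MYC and 319.9 and 302 CPM in Zab (0.63 ± 0.081, adjusted p = 2.1e-09). HNRNPAB had 634 and 654 CPM in Zab+MYC and 424 and 414 CPM in Zab (0.62 ± 0.069, adjusted p = 2.5e-11). Both Zab+MYC libraries lay above both Zab libraries in each case. HNRNPDL had 238 and 251 CPM in Zab+MYC and 161 and 159 CPM in Zab (0.61 ± 0.10, adjusted p = 3.9e-06). HNRNPA2B1, which with HNRNPA1 represses exons from silencer elements, had 445 and 431 CPM in Zab+MYC and 315 and 306 CPM in Zab (0.49 ± 0.078, adjusted p = 5.2e-07). SRSF11 had 316 and 292 CPM in Zab+MYC and 225 and 219 CPM in Zab (0.45 ± 0.093, adjusted p = 0.0001). These 6 calls held in every alternative run, though SRSF1, HNRNPA2B1 and SRSF11 were not in the fit of genes listed with 1 transcript.

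The other 7 calls did not hold throughout, and DESeq2 ended all 7 of them. Those of HNRNPF and HNRNPH3 also ended without a filter. That of HNRNPH3 ended with edgeR, and that of HNRNPF with library totals and with the compared libraries fitted alone. HNRNPA1 and HNRNPM, at 0.45 ± 0.11 and 0.35 ± 0.085, lost theirs with DESeq2 alone (adjusted p up to 0.072 and 0.067). PTBP1 (0.33 ± 0.097) lost it with DESeq2 and without Zab+MYC replicate 1 (up to 0.13), and HNRNPD (0.33 ± 0.084) and SRSF3 (0.34 ± 0.10) also without Zab replicate 1 (up to 0.072 and 0.15). HNRNPD had 422 and 386 CPM in Zab+MYC and 301 and 340 CPM in Zab. HNRNPF (0.35 ± 0.13) lost it without Zab+MYC replicate 1 or either Zab library, and HNRNPH3 (0.76 ± 0.28) without either Zab+MYC library or Zab replicate 1 (up to 0.32 and 0.61). Without Zab+MYC replicate 1, 8 members were called higher, with 9.77% of all genes. HNRNPH3 was listed with different transcripts in Zab+MYC and in Zab, and the part of this in its difference was not tested. SRSF5, lower in MYC against WT, gave -0.40 ± 0.24 here with an adjusted p of 0.21, and HNRNPLL gave 0.20 ± 0.19. Of the related lists, 5 of 20 SR-related proteins were higher, against 14.3% of all genes. U2AF2 had the largest difference of these at 0.71 ± 0.098, and SRPK1 rose by 0.91 ± 0.18 (adjusted p = 4.4e-05). MBNL1, a splicing regulator outside both families, rose by 1.14 ± 0.17 (adjusted p = 6.7e-08).

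The effect of Zab without overexpressed MYC was read from Zab against WT. Of the 35 members 2 were higher and 11 lower, 5.71% and 31.4%, against 13.1% and 11.3% of all genes. The median difference was -0.17 over the members and -0.0003 over all genes. The members called lower were HNRNP genes with 1 exception: 10 of 20 HNRNP genes were lower and 1 higher, and of 11 SRSF genes SRSF4 was lower and SRSF2 higher. A difference between the families was not tested here either. The exon share of tags was 60.6% to 60.9% in Zab and 70.6% to 71.1% in WT. MYC RNA lay 2.51-fold higher in Zab cells against WT cells (1.33 ± 0.091, adjusted p = 1.4e-20), and its part in the differences was not tested. Both Zab libraries lay above both WT libraries in 6 members and below both in 19, against 29.8% and 29.2% of all genes.

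HNRNPLL had 50.2 and 46.5 CPM in Zab libraries and 94.0 and 93.2 CPM in WT, 1.90-fold lower (-0.93 ± 0.19, adjusted p = 7.5e-05). HNRNPM, which binds GU-rich elements, had 287 and 263 CPM in Zab and 381 and 374.5 CPM in WT (-0.46 ± 0.085, adjusted p = 1.7e-05). HNRNPA2B1 had 315 and 306 CPM in Zab and 402.5 and 397 CPM in WT (-0.36 ± 0.078, adjusted p = 0.00018). The Zab libraries lay below both WT libraries in all 3 genes, and these were the only member calls of this comparison that held in every alternative.

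HNRNPH2 and HNRNPH3, G-run binding relatives of HNRNPH1, had the largest other differences. HNRNPH2 had 10.04 and 17.1 CPM in Zab and 25.2 and 31.8 CPM in WT (-0.999 ± 0.33, adjusted p = 0.019). HNRNPH3 had 15.1 and 33.1 CPM in Zab and 49.8 and 34.4 CPM in WT (-0.83 ± 0.28, adjusted p = 0.022). The spread within a genotype was wide for both, and both were listed with different transcripts in Zab and in WT. HNRNPR had 199 and 160.3 CPM in Zab and 209.5 and 251 CPM in WT (-0.35 ± 0.11, adjusted p = 0.011), and HNRNPK, a poly(C)-binding protein, 276 and 292.5 CPM in Zab and 324 and 352 CPM in WT (-0.25 ± 0.089, adjusted p = 0.032). HNRNPF, HNRNPA1, HNRNPUL1 and SRSF4 fell by 0.36, 0.31, 0.28 and 0.39 on the log2 scale (adjusted p = 0.037, 0.031, 0.049 and 0.038). Higher in Zab were SRSF2, with 319.9 and 302 CPM in Zab and 267 and 263 CPM in WT (0.23 ± 0.081, adjusted p = 0.029), and HNRNPAB, with 424 and 414 CPM in Zab and 381 and 352 CPM in WT (0.19 ± 0.069, adjusted p = 0.031). On the deposited scale both reversed to -0.31 and -0.35.

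The other 10 calls ended with 1 library left out, and DESeq2 made none of them. Without Zab replicate 1 the calls of HNRNPAB, HNRNPF, HNRNPH2, HNRNPH3, HNRNPK, HNRNPUL1, SRSF2 and SRSF4 ended, and without Zab replicate 2 those of HNRNPA1, HNRNPF, HNRNPK, HNRNPR, HNRNPUL1 and SRSF4. Without WT replicate 1 the calls of HNRNPA1, HNRNPF, HNRNPH3, HNRNPUL1 and SRSF2 ended, and without WT replicate 2 those of HNRNPA1, HNRNPAB, HNRNPH2, HNRNPK, HNRNPR, SRSF2 and SRSF4. HNRNPUL1 and HNRNPAB also lost theirs without either MYC library, and HNRNPUL1 and HNRNPH3 without Zab+MYC replicate 2. Over all alternatives the adjusted p reached 0.25 for HNRNPH2, 0.26 for HNRNPK, 0.28 for HNRNPA1, 0.29 for HNRNPAB, 0.31 for SRSF2, 0.34 for SRSF4, 0.35 for HNRNPR, 0.39 for HNRNPUL1, 0.53 for HNRNPH3 and 0.57 for HNRNPF. The members called lower numbered 5 without Zab replicate 1 and 6 without Zab replicate 2, with 8.31% and 8.41% of all genes, and 7 without WT replicate 1 or 2, with 6.73% and 7.74%. Those called higher numbered 0 without Zab replicate 1 or WT replicate 2, with 9.39% and 10.7% of all genes, and 1 without WT replicate 1, with 9.41%. They also numbered 1 without either MYC library, with 12% and 11.9%. On the deposited scale, which shifted the median of all genes by -0.52, 32 members were lower and 0 higher, with 49.3% and 2.59% of all genes. With library totals 13 were lower and 0 higher, with 12.9% and 11.7% of all genes.

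Among related genes, SRRM2, a scaffold protein of nuclear speckles, averaged 421 ± 4.70 CPM in Zab and 236 ± 23.1 CPM in WT (0.83 ± 0.086, adjusted p = 9.9e-13), and U2AF1 237 ± 10.2 and 139 ± 10.5 CPM (0.76 ± 0.098, adjusted p = 2e-09). In all 5 of 20 SR-related proteins were higher in Zab and 0 lower by limma. Of the hnRNP-like list RALY, a relative of HNRNPC, and ELAVL1, the AU-rich element binding HuR, fell by 0.67 ± 0.12 and 0.66 ± 0.16 on the log2 scale (adjusted p = 5.8e-06 and 0.0013), and the list had 3 higher and 2 lower of 12. The ELAVL1 call ended with DESeq2 (adjusted p = 0.1). MBNL1 fell by 0.98 ± 0.17 on the log2 scale (adjusted p = 2.5e-06) and RBM4 rose by 0.95 ± 0.17 (adjusted p = 7.4e-06), among 3 higher and 6 lower of 24 other regulators. Of the decay factors 3 of 15 and of the kinases and import factors 2 of 10 were higher. Over all genes 13.1% were higher and 11.3% lower in this comparison.

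**Figure D4:**
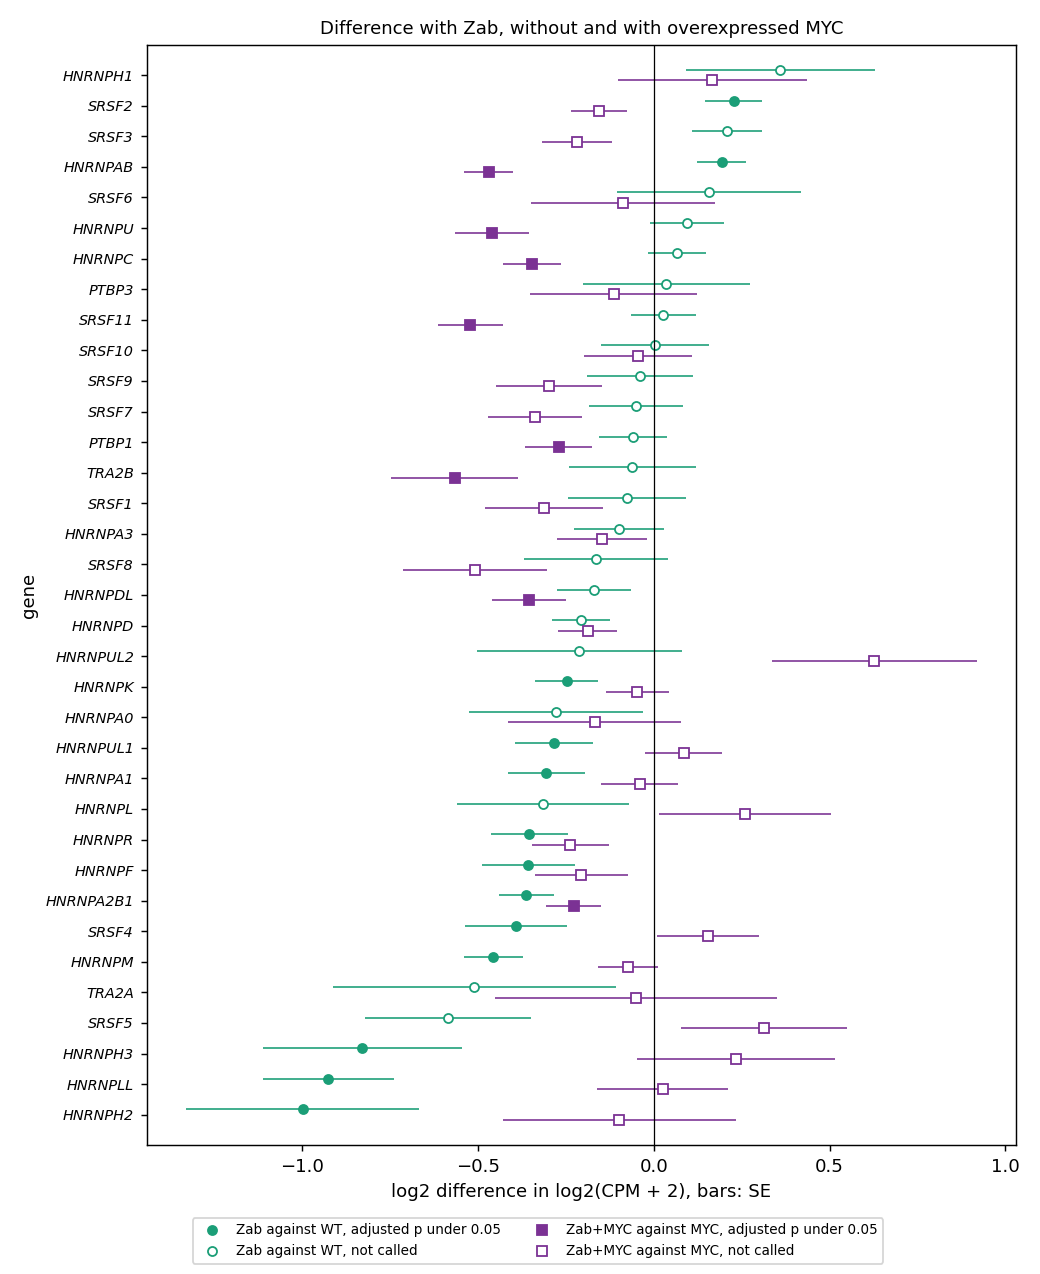
Difference with Zab for the 35 members tested, in log2(CPM + 2) with SE bars, for Zab against WT (circles) and Zab+MYC against MYC (squares), with filled symbols at an adjusted p under 0.05. HNRNPA2B1 is filled in both; HNRNPAB is filled at 0.19 in the first and at -0.47 in the second.

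The effect of Zab in cells that overexpress MYC was read from Zab+MYC against MYC, which shares no library with Zab against WT. Of the 35 members 0 were higher and 8 lower, 22.9%, against 11.8% higher and 8.14% lower of all genes. By adjusted p edgeR and DESeq2 also called 0 higher. At an unadjusted p under 0.05 limma and edgeR had 1 member higher each and DESeq2 had 0. Both Zab+MYC libraries lay above both MYC libraries in 2 members and below both in 21, against 30% and 30.2% of all genes. The median difference was -0.16 over the members and -0.0017 over all genes. MYC itself had a 1.79-fold lower level in Zab+MYC (-0.84 ± 0.091), and its part in the differences was not tested. Only HNRNPA2B1 was called lower both here and in Zab against WT, 1 of 11 members there (9.09%) and 1 of 8 here (12.5%). Over all genes the 74 shared calls were 6.78% and 9.4%.

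HNRNPAB had 634 and 654 CPM in Zab+MYC libraries and 899 and 887.5 CPM in MYC (-0.47 ± 0.069, adjusted p = 1.5e-07). SRSF11 had 316 and 292 CPM in Zab+MYC and 422 and 453 CPM in MYC (-0.52 ± 0.093, adjusted p = 1.1e-05). HNRNPU had 200 and 215.5 CPM in Zab+MYC and 287 and 285.5 CPM in MYC (-0.46 ± 0.11, adjusted p = 0.00068). HNRNPC had 369 and 367 CPM in Zab+MYC and 483 and 454 CPM in MYC (-0.35 ± 0.083, adjusted p = 0.0012). These 4 calls held in every alternative run, and both Zab+MYC libraries lay below both MYC libraries. Only HNRNPAB of these 4 was in the fit of genes listed with 1 transcript. TRA2B, a sequence-specific activator of exons, had 56.9 and 61.0 CPM in Zab+MYC and 89.7 and 86.8 CPM in MYC (-0.57 ± 0.18, adjusted p = 0.017).

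The TRA2B call ended without Zab+MYC replicate 1 or either MYC library (adjusted p up to 0.11), and that of HNRNPDL (-0.36 ± 0.10) without Zab+MYC replicate 1 or MYC replicate 2 (up to 0.12). The calls of PTBP1 (-0.27 ± 0.097) and HNRNPA2B1 (-0.23 ± 0.078) ended without Zab+MYC replicate 2 or either MYC library (up to 0.16 and 0.11). Members called lower numbered 5 and 4 without MYC replicates 1 and 2, with 4.79% and 4.57% of all genes, and 13 without Zab replicate 1, with 10.4%. DESeq2 ended the calls of TRA2B, PTBP1 and HNRNPA2B1, and library totals those of PTBP1 and HNRNPA2B1. The deposited scale, with a shift of -0.31 in the median of all genes, gave 22 lower and 0 higher, with 30.5% and 5.94% of all genes. Of 20 SR-related proteins 7 were lower and 0 higher by limma, against 8.14% and 11.8% of all genes. LUC7L3, a U1-associated factor, averaged 84.6 ± 2.65 CPM in Zab+MYC and 159 ± 1.67 CPM in MYC (-0.90 ± 0.16, adjusted p = 8.8e-06). RBM25 and SYNCRIP fell by 0.73 ± 0.10 and 0.65 ± 0.095 on the log2 scale (adjusted p = 3.2e-08 and 1.2e-07).

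Zab+MYC against WT sets both constructs against neither, and shares libraries with all the comparisons above. Of the 35 members 9 were higher and 5 lower, 25.7% and 14.3%, against 21.6% and 20.6% of all genes, with a median difference of 0.02 over the members and -0.01 over all genes. SRSF2 had 471.5 and 490.5 CPM in Zab+MYC and 267 and 263 CPM in WT (0.85 ± 0.081, adjusted p = 1.1e-14), and HNRNPAB 634 and 654 CPM in Zab+MYC and 381 and 352 CPM in WT (0.81 ± 0.069, adjusted p = 1.5e-16). SRSF1 rose by 0.76 ± 0.17 (adjusted p = 0.00013). SRSF5 had 27.7 and 35.4 CPM in Zab+MYC and 68.8 and 59.9 CPM in WT (-0.99 ± 0.24, adjusted p = 0.0004), HNRNPLL 56.5 and 55.3 CPM in Zab+MYC and 94.0 and 93.2 CPM in WT (-0.72 ± 0.19, adjusted p = 0.001), and HNRNPUL1 fell by 0.49 ± 0.11 on the log2 scale (adjusted p = 0.00019). The libraries of Zab+MYC and WT did not overlap in these 6 genes, whose calls held in every alternative. Both Zab+MYC libraries lay above both WT libraries in 15 of the 35 members and below both in 9, against 34.6% and 35.7% of all genes.

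SRSF3, SRSF11 and HNRNPDL rose by 0.55 ± 0.10, 0.48 ± 0.093 and 0.43 ± 0.10 (adjusted p = 4.4e-06, 1.6e-05 and 0.00043), and these calls ended on the deposited scale alone. HNRNPC (0.26 ± 0.083, adjusted p = 0.0072) lost its call with 3 settings. HNRNPH1 (0.87 ± 0.27, adjusted p = 0.0064) and PTBP1 (0.27 ± 0.097, adjusted p = 0.017) lost theirs without Zab+MYC replicate 1 or WT replicate 1 (up to 0.2 and 0.35). HNRNPH2 (-0.81 ± 0.33, adjusted p = 0.042) lost it without Zab+MYC replicate 1 or either WT library (up to 0.28). HNRNPA0 (-0.63 ± 0.25, adjusted p = 0.032) had 23.4 and 43.9 CPM in Zab+MYC and 42.9 and 60.4 CPM in WT, which overlap, and lost it without Zab+MYC replicate 1 or WT replicate 2 (up to 0.63). Without WT replicate 2, 3 members were lower, with 15.6% of all genes. DESeq2 also ended the calls of HNRNPH1, PTBP1, HNRNPH2 and HNRNPA0, and the deposited scale those of HNRNPH1 and PTBP1. Library totals ended that of PTBP1. Those of HNRNPH2 and HNRNPA0 ended without a filter, and that of HNRNPH2 with the filter of 5 CPM. With the deposited scale 3 members were higher and 18 lower at a median shift of -0.37, with 10.5% and 40.7% of all genes. With library totals 7 were higher and 7 lower, with 19.1% and 23.7% of all genes. HNRNPH1 and SRSF11 were listed with different transcripts in Zab+MYC and in WT, and the part of this in their differences was not tested.

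Whether Zab made the same difference with and without overexpressed MYC was tested as an interaction, the Zab difference in MYC cells (Zab+MYC minus MYC) minus that in the others (Zab minus WT). Of the 35 members 5 were positive and 6 negative, 14.3% and 17.1%, against 14.6% and 13.3% of all genes, shares near the background. The negative calls were HNRNPAB (-0.66 ± 0.098, adjusted p = 8.9e-08), HNRNPU (-0.55 ± 0.15, adjusted p = 0.0028), SRSF11 (-0.55 ± 0.13, adjusted p = 0.0007), SRSF3 (-0.43 ± 0.14, adjusted p = 0.016), HNRNPC (-0.41 ± 0.12, adjusted p = 0.005) and SRSF2 (-0.38 ± 0.11, adjusted p = 0.0072). In each of these 6 genes the difference with Zab was negative with overexpressed MYC and positive without it at TMM scaling. Only HNRNPAB was called in both comparisons. Without overexpressed MYC the differences of SRSF3 (0.21 ± 0.10), HNRNPU (0.09 ± 0.11), HNRNPC (0.06 ± 0.083) and SRSF11 (0.03 ± 0.093) were not called. With it those of SRSF3 (-0.22 ± 0.10) and SRSF2 (-0.16 ± 0.081) were not called. On the deposited scale the difference was negative without overexpressed MYC too in all 6 genes. The positive calls were HNRNPH3 (1.06 ± 0.40, adjusted p = 0.037), HNRNPLL (0.95 ± 0.27, adjusted p = 0.0041), SRSF5 (0.90 ± 0.33, adjusted p = 0.035), SRSF4 (0.55 ± 0.21, adjusted p = 0.037) and HNRNPM (0.38 ± 0.12, adjusted p = 0.011). In the first 4 of these 5 genes the difference was positive with overexpressed MYC and negative without it at TMM scaling. None of the 4 was called with overexpressed MYC, at 0.23 ± 0.28 for HNRNPH3, 0.02 ± 0.19 for HNRNPLL, 0.31 ± 0.24 for SRSF5 and 0.15 ± 0.145 for SRSF4. The negative difference of SRSF5 without it (-0.59 ± 0.24) was not called either. In HNRNPM the difference was -0.07 with overexpressed MYC, not called, and -0.46 without it. On the deposited scale the difference was negative with overexpressed MYC too in HNRNPH3, HNRNPLL and SRSF4.

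The interaction of HNRNPAB and SRSF11 held in every alternative run, though SRSF11 was not in the fit of genes listed with 1 transcript. HNRNPU lost its call on the deposited scale alone, HNRNPLL with DESeq2 alone, and HNRNPC and SRSF2 with both of these (adjusted p up to 0.072, 0.11, 0.2 and 0.27). DESeq2 also ended the calls of HNRNPM, SRSF3, HNRNPH3, SRSF5 and SRSF4. Library totals and the deposited scale ended that of SRSF3. Those of HNRNPH3, SRSF5 and SRSF4 ended without a filter and with the filter of 5 CPM. The calls of HNRNPH3 and SRSF5 ended with edgeR too, and that of SRSF4 with RLE scaling. HNRNPM also lost its call without Zab+MYC replicate 2, either MYC library or Zab replicate 2, and SRSF3 without Zab replicate 2 or WT replicate 1. HNRNPH3 lost it without either Zab+MYC library, MYC replicate 1, Zab replicate 1 or WT replicate 1 (up to 0.55). SRSF5 lost it without Zab+MYC replicate 2, either MYC library, Zab replicate 2 or WT replicate 1 (up to 0.28), and SRSF4 without Zab+MYC replicate 2, either MYC library, either Zab library or WT replicate 2 (up to 0.29). Positive calls numbered 1 without Zab+MYC replicate 2 or MYC replicate 1, with 10.1% and 10.5% of all genes. They numbered 2 without MYC replicate 2 or Zab replicate 2, with 11.4% and 11.8%, and 3 without Zab replicate 1 or WT replicate 1, with 11.7% and 10.8%. With the deposited scale, which shifted the median of all genes by 0.21, 10 members were positive and 2 negative, with 21.3% and 8.57% of all genes. Of 20 SR-related proteins 8 were negative and 0 positive by limma, against 13.3% and 14.6% of all genes. PNN, LUC7L3 and U2AF1 stood at -1.16 ± 0.24, -1.12 ± 0.22 and -1.11 ± 0.14. RALY was positive at 1.02 ± 0.17 (adjusted p = 1.3e-06). The interaction of MYC RNA itself was -2.16 ± 0.13, and its part in the members' values was not tested.

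**Figure D5:**
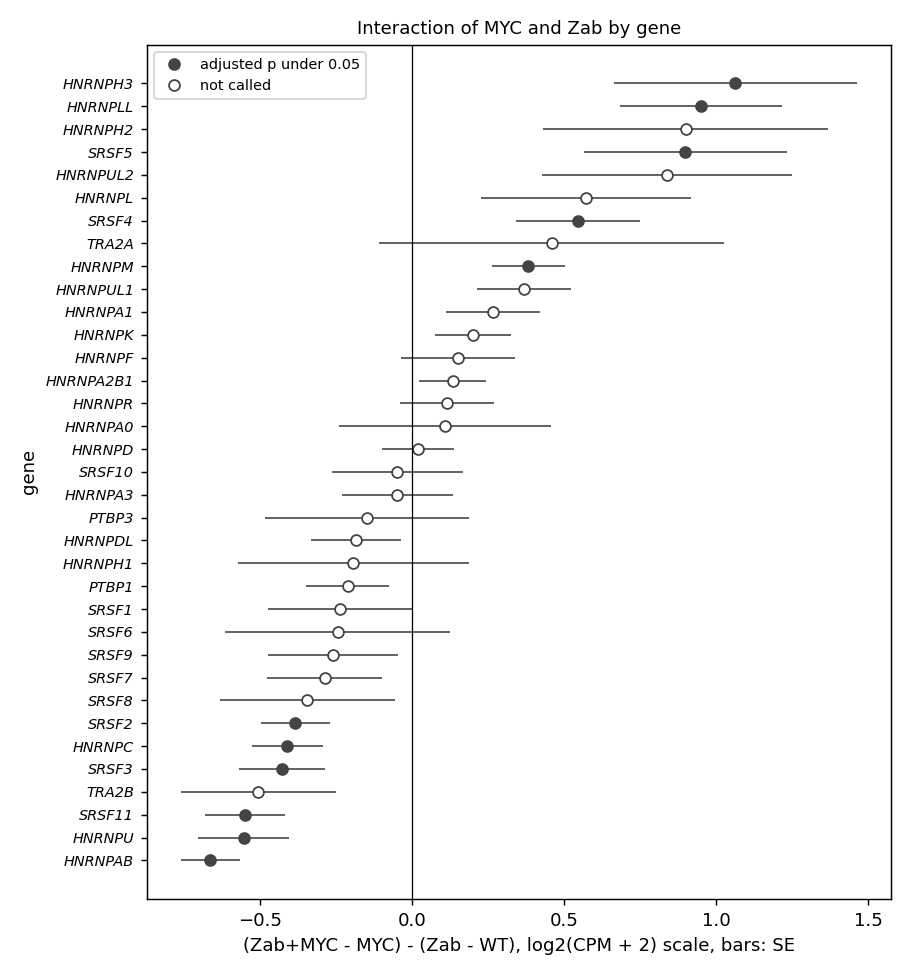
Interaction of MYC and Zab for the 35 members tested, as the Zab difference with overexpressed MYC minus that without, in log2(CPM + 2) with SE bars; filled circles have an adjusted p under 0.05. Of the 11 filled circles 5 lie right of 0, up to HNRNPH3 at 1.06, and 6 left of it, down to HNRNPAB at -0.66.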

How the data were processed

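Per the labels' protocols, Trizol was used to extract the RNA, and the library kit came from Abclonal. The submitters' processing notes list Trim Galore (0.6.6), STAR, HOMER (4.11.1) and the builds hg19 and dm6. Per the file headers, HOMER counted tags in exons of hg19 coding genes, with 1 transcript per gene. The deposited values are an exon signal, which was 100% whole multiples of 1 step per library (tolerance 0.1 step). A tag was taken as 2 steps, an assumption. Neither how the authors set the factor per library nor whether strand was used is stated in these sources. For 50.6% of genes, and 23 of the 42 members, the listed transcript differed between libraries.

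Recovered tags were scaled with TMM (edgeR 4.0.16), filtered with filterByExpr (9673 genes kept) and tested with limma 3.58.1 (trend, all 8 libraries, 4 residual degrees of freedom) on log2(CPM + 2). That pseudocount understates changes of low genes. edgeR's quasi-likelihood test and DESeq2 1.42.0 on the tags, 3 other scalings, other filters and pseudocounts, and each library left out were alternatives. Replicate numbers did not pair the libraries (correlations of deviations from -0.02 to 0.01), so no block was used. Programs were tested on simulated data. The members and lists were chosen with earlier results of these data known. Values by library are given for the 12 members with the highest mean CPM, not per kilobase, and for 15 called with at least a 1.5-fold change, 21 in all as 6 are both. TRA2B, outside these 21, is also given by library for Zab+MYC against MYC. Of each related list at most 4 genes per comparison are named, those called with the largest differences.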

Additional observations from a re-analysis of the deposited data

Results flagged for a closer look

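For 11 members the difference with Zab was not the same with and without overexpressed MYC, by limma's test of the interaction (adjusted p under 0.05). That is 11 of 35 members, against 27.9% of all genes, a share near the background. The log2 values of that test were -0.66 for HNRNPAB, -0.55 for HNRNPU, -0.55 for SRSF11, -0.43 for SRSF3, -0.41 for HNRNPC and -0.38 for SRSF2. They were 1.06 for HNRNPH3, 0.95 for HNRNPLL, 0.90 for SRSF5, 0.55 for SRSF4 and 0.38 for HNRNPM. HNRNPAB and SRSF11 kept the call in all alternatives run, and the other 9 calls ended in at least 1.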

How the results depend on the processing

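Direction was kept by every member call with every alternative except on the deposited scale, and counts of calls moved more than directions. On the deposited scale 0 members were higher and 32 lower for Zab against WT, with 2.59% and 49.3% of all genes. For Zab+MYC against MYC 22 were lower, with 30.5% of all genes. For Zab+MYC against WT 3 were higher and 18 lower, with 10.5% and 40.7% of all genes. On that scale the interaction had 10 positive and 2 negative members, with 21.3% and 8.57% of all genes. Of differences called on either scale, these reversed there: for Zab against WT in HNRNPAB (-0.35), HNRNPC (-0.48), HNRNPU (-0.44), SRSF2 (-0.31), SRSF3 (-0.33), SRSF10 (-0.53) and SRSF11 (-0.51), and for Zab+MYC against WT in HNRNPA2B1 (-0.26), HNRNPC (-0.12), HNRNPD (-0.26), PTBP1 (-0.11) and SRSF7 (-0.36). Uncalled differences that changed sign are not listed. By construction that scale moves all genes of a library together, and the sources used here do not say whether its factor rests on added fly RNA, in which case it, and not TMM, would compare amounts.

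The share of all genes called follows each count in brackets. With library totals there were 8 lower in MYC against WT (35.1%) and 0 higher in Zab against WT (11.7%). DESeq2 gave 3 lower in MYC against WT (20.4%), 0 higher and 3 lower in Zab against WT (6.35% and 5.01%), 5 lower in Zab+MYC against MYC (6.5%), 6 higher in Zab+MYC against Zab (6.25%), 3 lower in Zab+MYC against WT (10.9%), and 0 positive and 3 negative for the interaction (7.1% and 9.1%). edgeR gave 0 higher in Zab against WT (11.9%), 14 lower in Zab+MYC against MYC (13.4%) and 3 positive for the interaction (14.4%). Without a filter there were 1 higher and 3 lower in Zab against WT (6.34% and 5.26%), 3 lower in Zab+MYC against WT (10.7%) and 2 positive for the interaction (6.4%), which also had 2 positive with a filter of 5 CPM in 2 libraries (11.7%). Fitting the compared libraries alone gave 0 higher in Zab against WT (12.5%). Genes with 1 transcript in all libraries, a smaller set by construction, gave 6 higher and 2 lower in MYC against WT (30.5% and 31%), 0 and 4 in Zab against WT (15.7% and 13.8%), 2 lower in Zab+MYC against MYC (10.4%), 7 higher in Zab+MYC against Zab (17%), 4 and 2 in Zab+MYC against WT (24.3% and 23.2%), and 2 positive and 3 negative for the interaction (16.3% and 16.2%). Apart from the deposited scale and this smaller set, the cause was not tested.

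With 1 library left out, where the lone sample is assumed to vary like the other groups, calls ranged from 12 to 16 higher and 4 to 6 lower in MYC against WT, 0 to 2 and 5 to 11 in Zab against WT, 0 to 1 and 4 to 13 in Zab+MYC against MYC, 8 to 13 higher in Zab+MYC against Zab, 7 to 10 and 3 to 6 in Zab+MYC against WT, and 1 to 6 positive and 5 to 6 negative for the interaction. Shares of all genes for these fits are given with the comparisons above for some of the counts only. None is given for MYC against WT, for members higher in Zab+MYC against MYC or against WT, or for negative interactions. Where given, the share of all genes called also moved with the library left out. These ranges are therefore not results about the members alone. The replicate number as a block ended no call and gave 12 lower in Zab against WT, with 11.7% of all genes, but the numbers do not pair the libraries. Near 686991.5 exon tags, members under 50 CPM such as HNRNPH2 are limited by counting.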
